A study of Cardamine sp. SIM-2007 with 7 samples.

Results

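The clade III SWEET genes of Cardamine kokaiensis were followed in inflorescence primordia that were forming 3 kinds of flower. Members were the probe sets of the Arabidopsis ATH1 array that the platform annotation assigns to 1 gene with a symbol from SWEET9 to SWEET15. Of these 7 genes, 5 had such a probe set (SWEET9, SWEET10, SWEET11, SWEET13 and SWEET14), among 22746 tested probe sets, 13513 of which the annotation gave 1 gene. SWEET12 and SWEET15 were not found under these symbols. The annotation does hold SAG29, an older name of the Arabidopsis gene now called SWEET15, and its values are given beside the members without counting it among them.

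SWEET proteins are membrane carriers that let sugars pass down a concentration gradient without using a proton gradient. In Arabidopsis the clade III proteins carry mainly sucrose and act where it leaves a cell, so that it can be loaded into phloem, secreted as nectar or fed to pollen and seeds. Open and closed flowers can differ in the organs that draw on such sugar, among them nectaries, petals and anthers. The RNA here came from inflorescence primordia, so levels in those organs were not measured.

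The groups were cleistogamous flowers (CL), which stay closed and self-pollinate, chasmogamous flowers (CH), which open, and intermediate flowers (INT). CH plants had 14 days of chilling before germination, INT plants 14 days and CL plants 28 days after germination, so flower type cannot be told apart from the stage and length of chilling. Each RNA sample pooled 160 first-inflorescence primordia, taken when the first flower primordium could be seen, and each flower type had 2 biological replicates on 1 array each. A seventh array held genomic DNA from leaf of unchilled plants and showed how strongly Cardamine DNA bound each Arabidopsis probe set. Median intensities of the RNA arrays ranged from 260.8 to 301.8, and the number of arrays limits the precision. In pooled primordia, fewer cells of a type and less RNA per cell cannot be told apart.

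Of the markers fixed for the tissue, the annotation named 3 of 16 genes of inflorescence and floral meristems: CLV3, a stem-cell signal, UFO, a floral patterning gene, and JAG, an organ growth regulator. Their summed intensity was from 500 to 852 on the 6 RNA arrays. CLV3 measured 142 and 109 in CL, 67.1 and 53.6 in INT and 61.0 and 34.3 in CH, naming replicate 1 first here and throughout. Both CL arrays lay above all others for CLV3. CL lay wholly above CH for 13.9% of all tested probe sets and wholly above INT for 17%. UFO measured 83.4 and 485 in CL, 366 and 257 in INT and 435 and 581 in CH. JAG measured 274 and 167 in CL, 198 and 301 in INT and 356 and 209 in CH. The mean intensities of UFO and JAG were lowest in CL and highest in CH. The annotation named 2 of 9 nectary markers, SWEET9 itself and JMT, 4 of 12 tapetum and anther markers, 2 of 7 pollen markers, 1 of 9 leaf markers and 0 of 8 phloem markers. The summed tapetum and anther level was 776 and 561 in CL, 1007 and 898 in INT and 596 and 772 in CH. The 4 genes did not share this order. By mean intensity AMS and ROXY2 were highest in INT, ROXY1 in CH and EMS1 in CL. ROXY1 measured 366 and 70.0 on the INT arrays. Of the pollen markers, AGL65 measured 825 and 499 in CL, 467 and 669 in INT and 780 and 553 in CH, and AGL104 measured 57.9 or less on every array. For RCA, the leaf marker, intensity was 2437 and 2205 in CL, 4508 and 4013 in INT and 1400 and 2883 in CH, so that both INT arrays lay above all others. Over all tested probe sets, the arrays did not overlap in either direction for 34.2% in INT against CH and 33% in CL against INT. No marker with a probe set was at 0 on any array, but an intensity above 0 does not show that a gene was expressed. AGL104 fell to 6.50 on CL replicate 2, at percentile 1.71 of the tested probe sets. EMS1 fell to 21.2 on INT replicate 1, at percentile 9.05. On the genomic DNA array AGL104 had 71.8, at percentile 15.0, so its probes bound Cardamine DNA weakly.

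On the genomic DNA array SWEET14 had an intensity of 951, at percentile 84.6 of the tested probe sets, SWEET13 511 (percentile 60.2), SWEET9 458 (percentile 55.7) and SWEET11 407 (percentile 50.9). SWEET10 had 66.3, at percentile 14.1, and SAG29 124, at percentile 22.0. The array median was 398. The Arabidopsis probes for SWEET10 and SAG29 thus bound Cardamine DNA weakly on this single array, while the other 4 members lay at or above the median. A percentile says how bright a probe set was on an array; since probes bind with different strength, it does not rank one transcript against another.

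SWEET9 exports sucrose from nectary cells and is needed for nectar secretion in Arabidopsis. Its intensity was 489 and 252 in CL, 176 and 422 in INT and 570 and 344 in CH. The CH mean was the highest and the INT mean the lowest, but the ranges of all 3 types overlapped. Fitted levels on the log2(intensity + 28.2) scale were 8.60 ± 0.50 (SD, n = 2) in CL, 8.25 ± 0.78 in INT and 8.88 ± 0.43 in CH. The difference of INT minus CH was -0.63 with a 95% interval from -1.73 to 0.48, which corresponds to 0.647-fold with an interval from 0.302-fold to 1.39-fold. INT minus CH was -0.075 without INT replicate 1 and -1.18 without INT replicate 2. CL minus CH was -0.28 with an interval from -1.38 to 0.82. The sign of the CL minus CH difference depended on single arrays, since it was 0.074 without CL replicate 2 and 0.023 without CH replicate 1.

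SWEET10 is activated in the shoot apex of Arabidopsis when plants are induced to flower. Intensity was 527 and 158 in CL, 159 and 252 in INT and 178 and 268 in CH. CL replicate 1 was 3.35 times as bright as CL replicate 2, and the latter had the lowest deposited intensity of the 6 arrays. On the fitted scale INT replicate 1 at 7.57 and CH replicate 1 at 7.61 lay below CL replicate 2 at 7.64. The fitted levels were 8.35 ± 1.00 in CL, 7.83 ± 0.37 in INT and 7.93 ± 0.45 in CH (SD, n = 2 each). CL minus CH was 0.41 with an interval from -0.90 to 1.72 and CL minus INT 0.51 with an interval from -0.79 to 1.82. Without CL replicate 1 these differences were -0.29 and -0.19. INT and CH lay close together, with INT minus CH at -0.10 and an interval from -1.41 to 1.21. The weak genomic DNA signal of this probe set stands beside each of these values.

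SWEET11, which in Arabidopsis leaves works with SWEET12 to load sucrose into the phloem and also feeds the developing seed, was measured at 1098 and 646 in CL, 671 and 969 in INT and 879 and 514 in CH. On every RNA array it lay between percentiles 69.5 and 87.5. Each flower type held 1 brighter and 1 dimmer array, and the ranges overlapped. Fitted levels were 9.80 ± 0.52 in CL, 9.72 ± 0.36 in INT and 9.46 ± 0.51 in CH (SD, n = 2 each). The difference of CL minus CH was 0.34 with an interval from -0.48 to 1.17, INT minus CH was 0.25 and CL minus INT was 0.09. CL minus CH was -0.028 without CL replicate 1 and -0.019 without CH replicate 2.

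SWEET13 and SWEET14 act in Arabidopsis anthers, where they also carry gibberellin and are needed together for normal anther opening. SWEET13 had the narrowest spread of the members, with intensities of 409 and 330 in CL, 220 and 336 in INT and 403 and 256 in CH. Its fitted levels were 8.64 ± 0.07 in CL, 8.24 ± 0.35 in INT and 8.44 ± 0.34 in CH (SD, n = 2 each). On the fitted scale both CL arrays lay above both INT arrays, by a mean difference of 0.40 with an interval from -0.45 to 1.24. That difference was 0.15 without INT replicate 1 and 0.65 without INT replicate 2. Over all tested probe sets, CL lay wholly above INT for 17% of them and wholly apart in either direction for 33%. On the deposited scale, however, INT replicate 2 at 336 was above CL replicate 2 at 330, so that separation depended on the normalization. The CL minus CH difference was 0.20 and was -0.036 without CH replicate 2.

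SWEET14 varied most. Intensity was 295 and 227 in CL, 81.8 and 397 in INT and 101 and 212 in CH. The INT arrays differed 4.85-fold, and they held both the lowest and the highest value of the 6. Fitted levels were 8.18 ± 0.11 in CL, 7.74 ± 1.38 in INT and 7.48 ± 0.69 in CH (SD, n = 2 each). Both CL arrays lay above both CH arrays, and CL minus CH was 0.70 with an interval from -0.90 to 2.31, or 1.63-fold with an interval from 0.535-fold to 4.95-fold. CL lay wholly above CH for 13.9% of all tested probe sets and wholly apart in either direction for 28.7%. With single arrays left out the difference lay between 0.21 without CH replicate 1 and 1.19 without CH replicate 2. Because the 2 types did not overlap, leaving out 1 array could hardly reverse its sign, so the kept sign adds no support. INT minus CH was 0.27 and was -0.71 without INT replicate 2, and CL minus INT was 0.44 and was -0.54 without INT replicate 1.

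**Figure D1:**
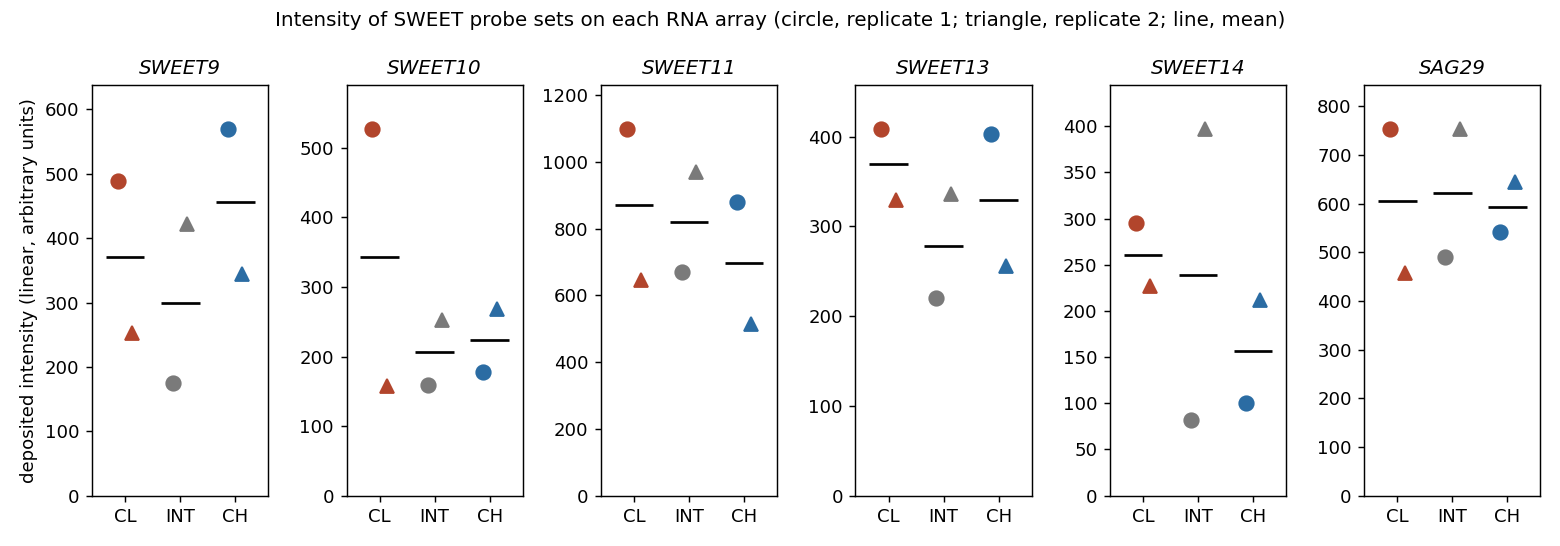
Deposited intensity (y axis, linear, arbitrary units, each panel from 0 with its own scale) of the 5 SWEET members and SAG29 on the 2 arrays of each flower type (x axis), with replicate 1 as a circle, replicate 2 as a triangle and the group mean as a line. The arrays of a type are spread widely, as for SWEET14 in INT at 81.8 and 397, and only SWEET14 in CL against CH shows 2 types without overlap among the members.

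SAG29, a gene whose product exports sucrose in ageing leaves and seed coats of Arabidopsis, measured 753 and 458 in CL, 490 and 753 in INT and 541 and 643 in CH. Its group means were closest together of the 6 probe sets shown. CL had 9.30 ± 0.42, INT 9.33 ± 0.40 and CH 9.25 ± 0.21 on the log2 scale (SD, n = 2 each). CL minus CH was 0.05 with an interval from -0.68 to 0.79, which leaves room for differences up to 1.72-fold, and it was -0.0046 without normalization between arrays.

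The design asked whether transcripts differed between closed, intermediate and open flowers. For the SWEET members no difference was found: 0 of 5 passed in CL against CH, INT against CH or CL against INT, with limma's Benjamini-Hochberg adjusted p at 0.9999 for each in CL against CH, from 0.984 to 0.998 in INT against CH and from 0.985 to 0.995 in CL against INT. Over all 22746 probe sets limma called 0% in each comparison. Without adjustment, 0 of 5 members had a p under 0.05 in any of these comparisons, against 3.53% of all probe sets in CL against CH, 4.76% in INT against CH and 4.4% in CL against INT. A difference over 1 log2 unit was found for 0 of 5 members in each, against 4.78%, 6.28% and 5.96% of all probe sets in the same order. The arrays of the types compared did not overlap for 1 of 5 members in CL against CH (28.7% of all probe sets), 0 of 5 in INT against CH (34.2%) and 1 of 5 in CL against INT (33%). The moderated F-test over the 3 types gave the members unadjusted p-values from limma between 0.455 for SWEET9 and 0.645 for SWEET10, each with an adjusted p of 0.996. That test called 0% of all probe sets and gave 4.2% of them a p under 0.05 before adjustment. An exact permutation test of 2 arrays against 2 could not have gone below a two-sided p of 0.333.

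These results do not show equal levels. The 95% intervals reached 0.83 log2 units on either side of the difference for SWEET11, 0.85 for SWEET13, 1.103 for SWEET9, 1.31 for SWEET10 and 1.60 for SWEET14, against a median of 0.90 over all probe sets. A change of 2-fold, 1 log2 unit, in at least one direction therefore lay inside the interval of CL minus CH for each of the 5 members.

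**Figure D2:**
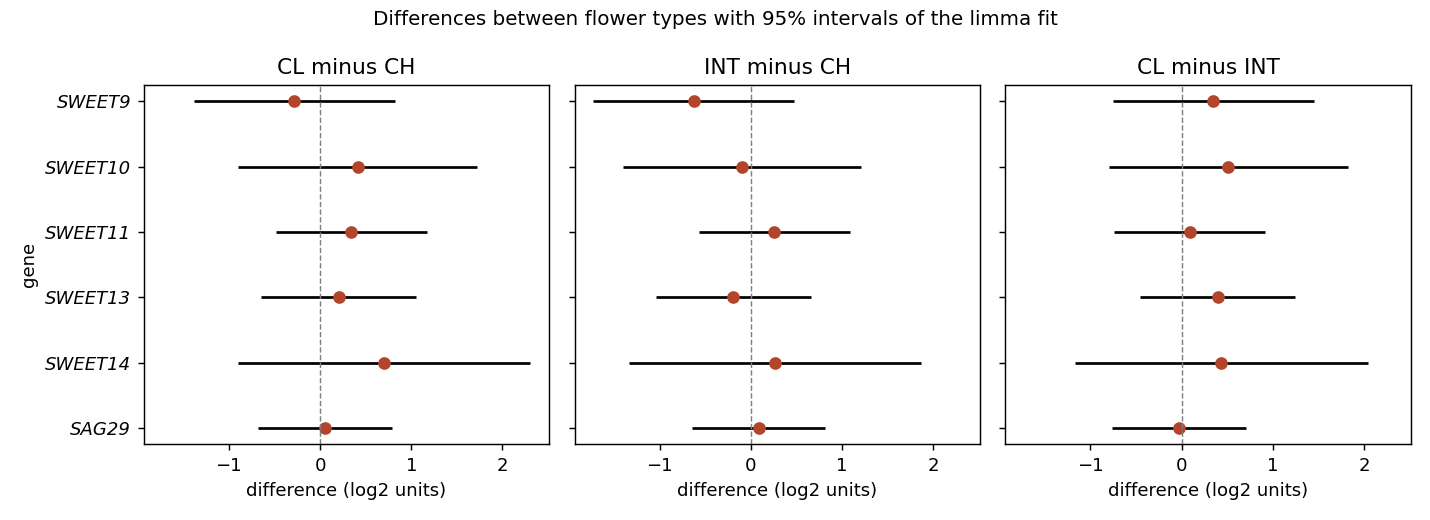
Differences between flower types in log2 units (x axis) for the 5 members and SAG29 (y axis), with points for the limma estimate and lines for its 95% interval. Every interval crosses 0, and the widest is that of SWEET14, from -0.90 to 2.31 in CL minus CH.

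By group means, CL was the highest type for SWEET10, SWEET11, SWEET13 and SWEET14, and CH for SWEET9. INT was the lowest for SWEET9, SWEET10 and SWEET13, and CH for SWEET11 and SWEET14. CL was highest for 32% of all probe sets. Neighbouring types in these orders did not differ beyond the spread of their arrays. All 5 members had a higher mean in CL than in INT, with a median difference of 0.40 where the median of all probe sets was 0.002, and 50.2% of all probe sets were higher in CL. The count was 2 of 5 without CL replicate 1 and 2 of 5 without INT replicate 1. In CL against CH 4 of 5 members were higher in CL, with a median of 0.34 against -0.01 over all probe sets, of which 49% were higher in CL. Here the count was 2 of 5 without CL replicate 1 or without CH replicate 2, and 5 of 5 without CL replicate 2 or without CH replicate 1. In INT against CH 2 were higher and 3 lower, with a median of -0.10 against -0.01 over all probe sets, of which 49.2% were higher in INT. That count of 2 was 4 without INT replicate 1 and 1 without INT replicate 2. CLV3, the stem-cell marker above, was also highest in CL, while UFO and JAG of the same list had their lowest mean in CL. The part of these markers in the order of the members' means was not tested. The 3 comparisons share arrays pairwise, so their values do not support each other.

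The largest gap between replicates exceeded the largest difference between group means in 5 of 5 members, as it did in 77.5% of all probe sets. For SWEET14 the gap was 1.95 log2 units in INT against a largest group difference of 0.70, for SWEET10 it was 1.41 in CL against 0.51, and for SWEET9 1.102 in INT against 0.63. SWEET11 had a gap of 0.74 in CL against 0.34, and SWEET13 one of 0.49 in INT against 0.40.

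Within CL and within INT the members had a common direction between replicates, which was not so in CH. All 5 were brighter on CL replicate 1 than on CL replicate 2, by 0.10 log2 units for SWEET13, 0.15 for SWEET14, 0.71 for SWEET9, 0.74 for SWEET11 and 1.41 for SWEET10. All 5 were dimmer on INT replicate 1 than on INT replicate 2, by 0.49 to 1.95 log2 units. In CH, SWEET9, SWEET11 and SWEET13 were brighter on replicate 1 and SWEET10 and SWEET14 on replicate 2. SAG29 went with the members in CL (0.60) and INT (-0.56). Over all tested probe sets, 53.1% were brighter on CL replicate 1 and 50.7% dimmer on INT replicate 1. The CL and INT directions were shared by other SWEET genes, of which 9 of 9 were brighter on CL replicate 1 and 7 of 9 dimmer on INT replicate 1. On CH replicate 1, 7 of these 9 were brighter, as were 3 of the 5 members and 51.7% of all tested probe sets. Before normalization the array on which the members were brighter in CL and in INT also had the higher median over the tested probe sets. These medians were 300.4 against 260.7 in CL and 288 against 273.3 in INT. In CH, where the members went both ways, the median was 301.7 on replicate 1 and 273.0 on replicate 2. All 5 members had the same directions on the deposited scale. There, 58.8% of all tested probe sets were brighter on CL replicate 1, 53.3% dimmer on INT replicate 1 and 56.4% brighter on CH replicate 1. The part of array brightness in these directions was not tested.

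**Figure D3:**
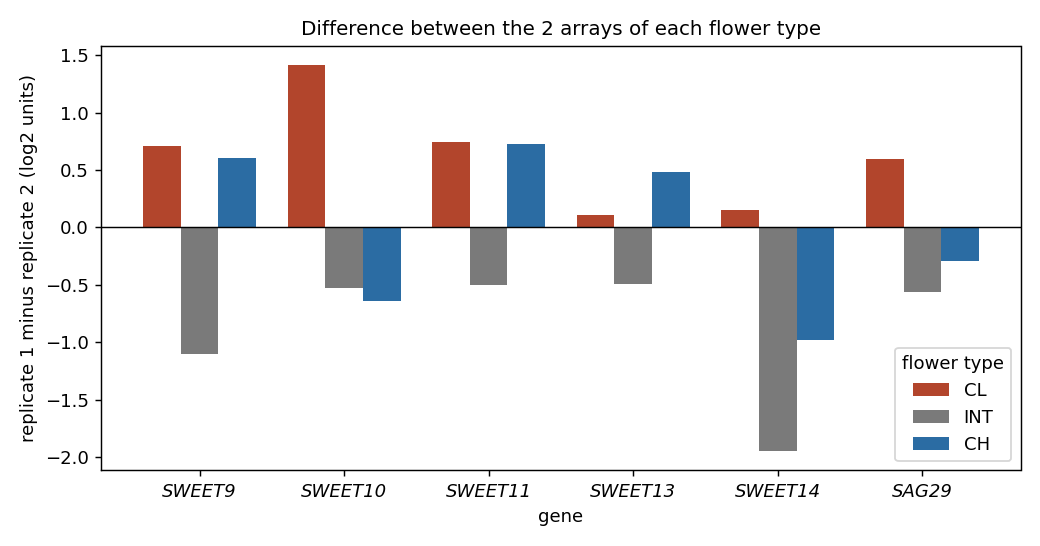
Replicate 1 minus replicate 2 in log2 units (y axis) for each flower type (bars) and each of the 5 members and SAG29 (x axis). Bars of CL all lie above 0 and bars of INT all below 0, while those of CH go both ways.

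The probe sets whose pattern was most like that of each member over the 6 RNA arrays were sought among 6118 or 6119 single-gene probe sets above the median level. For SWEET9 they were AT1G14210 (Pearson r = 0.995), AT1G08210 and PHYLLO, and 110 probe sets had an r above 0.9. For SWEET10 they were AT1G02660 (r = 0.979), AT5G27490 and KOM, with 26 above 0.9. For SWEET11 they were KINESIN-13A (r = 0.995), PSAN and AT5G59350, with 97 above 0.9. SWEET13 was most like AT1G05280 (r = 0.989), AT1G53050 and AT3G29185, and SWEET14 like AT3G20430 (r = 0.971), AT3G44620 and AT1G17850, with 60 and 32 above 0.9. These values describe 6 arrays that share the replicate gaps above, and with so many probe sets searched a high r was found for each member.

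Of the other SWEET genes, 9 of 10 had a probe set, and 0 of 9 passed in any comparison. They include carriers of hexoses and of the vacuole. In CL against CH 8 of the 9 had a higher mean in CL, with a median difference of 0.17, and in CL against INT 7 of 9, with a median of 0.20. Over all probe sets 49% and 50.2% were higher in CL. As given above, 9 of 9 were brighter on CL replicate 1 than on CL replicate 2. Counts without single arrays are not given for these genes. SWEET2, a vacuolar glucose carrier, had the lowest F-test p (limma, unadjusted p = 0.171). Its intensity was 564 and 355 in CL, 222 and 324 in INT and 474 and 354 in CH, with both INT arrays lowest. Of all tested probe sets, 34.2% did not overlap in INT against CH and 33% in CL against INT. SWEET16, a carrier of the vacuolar membrane, had 546 and 417 in CL, 298 and 537 in INT and 317 and 286 in CH. SWEET4 measured 791 and 708 in CL, 551 and 638 in INT and 593 and 691 in CH, and SWEET3 measured 1003 and 677 in CL, 1019 and 876 in INT and 376 and 935 in CH. Intensity on the genomic DNA array was 31.6 for SWEET6 and 35.9 for SWEET8, a gene needed for the pollen wall, at percentiles 5.76 and 6.96, so their RNA values rest on weakly binding probes.

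Few other sugar genes could be followed. The annotation named 0 of 12 sucrose-proton symporters and 0 of 14 monosaccharide-proton symporters on the lists, 5 of 16 tonoplast and other carriers, 1 of 18 invertases and 1 of 14 genes of sucrose synthesis. Of these 7 genes, 0 passed in any comparison. SFP1, a monosaccharide carrier first described in ageing leaves, measured 206 and 225 in CL, 233 and 213 in INT and 316 and 469 in CH, so that both CH arrays lay above the others (limma F-test, unadjusted p = 0.196). Over all tested probe sets, the arrays did not overlap for 28.7% in CL against CH and 34.2% in INT against CH. Among tonoplast sugar carriers, TMT2 measured 848 and 648 in CL, 933 and 1065 in INT and 825 and 866 in CH, and TMT3 ranged from 706 in CH to 1230 in CH. SFP2 ranged from 162 in CH to 335 in CH. cwINV6, which in Arabidopsis breaks down fructans despite its name, measured 503 and 240 in CL, 164 and 290 in INT and 385 and 378 in CH. On the genomic DNA array cwINV6 had 39.8, SFP2 43.5 and SFP1 120, at percentiles 8.04, 8.96 and 21.5. The RNA values of these genes thus rest on weakly binding probes. SPS4F, a sucrose phosphate synthase, stayed between 3.91 and 26.2 on all RNA arrays although its genomic DNA intensity was 434, above the array median. JMT, a jasmonate methyltransferase listed with the nectary markers beside SWEET9, measured 113 and 130 in CL, 12.7 and 32.6 in INT and 35.4 and 137 in CH.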

How the data were processed

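The deposited table holds linear intensities, 1 per probe set, for 7 Affymetrix ATH1 arrays. The RNA values had been calibrated by the authors against the genomic DNA array, per the labels. Which software and which DNA threshold they used is not given in the sources used here. Trimmed of 2% at either end, the mean of each array was 500.0. All 64 control probe sets of the 22810 were removed. Fits used log2(intensity + 28.2); the constant is the median RNA intensity divided by 10 and makes changes of dim genes look smaller. As array medians ranged over 0.19 log2 units, more than the limit of 0.1, quantile normalization was applied. The types were compared in limma 3.58.1 (R 4.3.3) on the 6 RNA arrays, with an intensity trend in eBayes, two-sided tests and Benjamini-Hochberg adjustment over 22746 probe sets at 0.05. This fit was tested on simulated data. The platform annotation was the source of gene names; it lists 503 probe sets with several genes and 8794 without any, and neither kind was named. All members, up to 4 genes per sugar list by lowest F-test p and the 3 probe sets most like each member were named. SAG29 was added after the annotation was seen. Members and lists were chosen with earlier results of these data known. Plots were made in matplotlib 3.10.9 (Python 3.11.15).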

Additional observations from a re-analysis of the deposited data

How the results depend on the processing

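Over 216 refitted differences of the 5 members, under other normalizations, offsets, filters, variance models, array sets and a replicate block, 0 passed the adjusted threshold and 0 had an unadjusted p under 0.05. Of these, 19 had the opposite sign, all with 1 array left out, in 12 of the 15 member comparisons. Probe sets called stayed at 0 in every setting run. Leaving out single arrays moved CL minus CH from -0.64 to 0.074 for SWEET9, -0.29 to 1.11 for SWEET10, -0.028 to 0.72 for SWEET11, -0.036 to 0.45 for SWEET13, 0.21 to 1.19 for SWEET14 and -0.25 to 0.35 for SAG29. It moved INT minus CH from -1.18 to -0.075 for SWEET9, -0.42 to 0.22 for SWEET10, -0.11 to 0.63 for SWEET11, -0.44 to 0.055 for SWEET13, -0.71 to 1.24 for SWEET14 and -0.19 to 0.36 for SAG29. It moved CL minus INT from -0.21 to 0.90 for SWEET9, -0.19 to 1.21 for SWEET10, -0.29 to 0.45 for SWEET11, 0.15 to 0.65 for SWEET13, -0.54 to 1.42 for SWEET14 and -0.34 to 0.26 for SAG29. Without between-array normalization SAG29 stood at -0.0046 in CL minus CH; the cause was not tested. SWEET10 was below the median on both filters, and SAG29 below that on genomic DNA and SWEET14 below that on RNA level, so these have no value there. Each filter left 11373 probe sets, and an unadjusted p under 0.05 was then found for 327 or 397 in CL against CH in place of 803, 440 or 528 in INT against CH in place of 1082, 428 or 484 in CL against INT in place of 1001, and 350 or 449 in the F-test in place of 956, naming the RNA filter first. Both filters lowered the number of probe sets tested from 22746 to 11373, so these counts cannot be set directly against the unfiltered ones.

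Replicate numbers are shared by the labels of the 3 types, but nothing says what a number stands for. Replicate differences correlated across probe sets at 0.25 between CL and CH, -0.05 between CL and INT and -0.05 between INT and CH. With the replicate number as a block, 0 probe sets were called in each comparison and in the F-test, and 893 in place of 803 had an unadjusted p under 0.05 in CL against CH.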
